A study of Mus musculus with 18 samples.

Results

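Satellites and the smaller repeat classes were examined in RNA-seq data from the mouse hippocampus. They were chosen by their class in the repeat count table: every entry whose class is none of LINE, SINE, LTR, DNA and rRNA, which gave 76 of the 1146 repeat entries. An entry is 1 named repeat family, and its count sums the reads from all annotated copies of that family in the genome. The 76 entries fall into 10 classes. These were Unknown (32 entries), DNA? (21), Satellite (9), Other (4), LTR? (3), RC (3), and 1 entry each in RNA, RC?, SINE? and LINE?; a question mark is part of the class name and marks an uncertain assignment. All mice were of the C57/B6 strain. The younger group was 9 months old and untreated, the older group was 20 months old and untreated, and the older 3TC-treated group was 20 months old and had received 3TC in the drinking water. 3TC (lamivudine) is a nucleoside analog that inhibits reverse transcriptase. Each group had 6 mice, 3 males and 3 females, and each mouse gave 1 library of a whole hippocampus. Libraries are named by the mouse codes of the study (Y, younger; C, older control; D, older drug-treated; then M or F for the sex).

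Satellites are long arrays of short or medium-length units repeated head to tail. In the mouse, the major (gamma) satellite lies around the centromeres and is packed into heterochromatin by histone H3 lysine 9 methylation, which keeps its transcription low. Helitrons, the RC class, are DNA transposons thought to have spread by rolling-circle replication. 7SK, the single entry of the RNA class, is a small nuclear RNA made by RNA polymerase III. It holds the elongation kinase P-TEFb (CDK9 with cyclin T) inactive together with HEXIM proteins, and MEPCE and LARP7 stabilize the particle. Most entries of the Unknown and DNA? classes (the UCON, Eulor and MER families) are small, old families that are shared among distant vertebrates or mammals.

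The 7SK gene is the member with a sequence that could be matched. Its 5' part is shown because it holds the 5' hairpin, through whose GATC motifs HEXIM proteins bind 7SK. The bounds of the hairpin were not marked, and a GATC in this part need not lie in it. Rn7sk lies at chr9:78175303-78175633 on the minus strand (GRCm38, GENCODE annotation) and gives a non-coding transcript of 331 bases. Its first 120 bases follow, with each GATC in capitals.
Rn7sk, bases 1 to 120: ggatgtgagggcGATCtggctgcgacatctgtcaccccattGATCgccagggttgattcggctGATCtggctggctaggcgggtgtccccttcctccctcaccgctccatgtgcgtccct
GATC, which reads the same on both strands, occurs 3 times in this window. Of 137364 annotated transcripts, 27.6% had at least 1 GATC in their first 120 bases and 0.521% had 3 or more. The 7SK entry of the repeat table counts all annotated copies, so the values below are not of this locus alone. The gene table held 0 of 17 listed small RNA genes, Rn7sk among them, so 7SK was measured through the repeat table.

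Each library held 34584615 (CMO1) to 49126203 (CFO3) counts. Repeat entries took 63.4% (YM1, a younger male) to 85.7% (CFO2, an older female) of all counts, with means of 76.0% ± 6.94 in younger, 77.3% ± 6.02 in older and 76.6% ± 6.24 in older 3TC-treated mice (SD, n = 6 each). The labels gave no batch, and no pair of libraries in a group agreed within sampling noise. A set of 4 Y-linked genes summed to 1118 to 2361 counts in males and 0 to 2 in females, as the sex labels state. Markers of neurons summed to 637 to 2388 CPM (counts divided by all counts of the library and multiplied by 1000000) and of oligodendrocytes to 266 to 1388 CPM. Choroid plexus markers, led by Ttr, ranged from 11.8 to 730 CPM, with medians of 139 in younger, 214 in older and 70.0 in older 3TC-treated mice. Thalamus markers ranged from 33.2 to 270 CPM, with medians of 44.5, 41.6 and 49.5 in the same order. The part of these tissue differences in the results was not tested.

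The 76 entries together took 1.55% to 1.92% of all counts in a mouse. Their share was 1.70% ± 0.074 in younger, 1.69% ± 0.122 in older and 1.72% ± 0.104 in older 3TC-treated mice (SD, n = 6 each). The ranges of the 3 groups overlapped. As a share of repeat counts they took 1.94% to 2.64%. A few entries held most of these reads: IMPB_01, a satellite, held 20.5% of the member counts, and IMPB_01, 7SK and the RMER1B entry together held 49.7%. With SYNREP_MM and GSAT_MM the share was 70.4%, and the 10 most counted entries held 93.7%. These are shares of reads and not levels per length, because the lengths and copy numbers of the families were not used.

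Satellites were the largest of the 10 classes. They took 0.783% ± 0.055 of all counts in younger, 0.768% ± 0.066 in older and 0.802% ± 0.078 in older 3TC-treated mice (SD, n = 6 each). The log2 ratio of the mean satellite share was -0.03 for older against younger mice and 0.06 for older 3TC-treated against older mice, beside an SD between mice of 0.12 on the log2 scale. The Other class took 0.528% ± 0.057 of all counts in younger, 0.521% ± 0.055 in older and 0.516% ± 0.059 in older 3TC-treated mice. The RNA class, which is 7SK alone, took 0.247% ± 0.044, 0.263% ± 0.078 and 0.257% ± 0.077 in the same order. It had the widest spread among mice of the 10 classes, from 0.133% in DMO5 to 0.368% in CMO6.

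The remaining 7 classes were smaller, and their group means lay close to each other. The Unknown class took 0.0945% ± 0.0078, 0.0963% ± 0.0048 and 0.0979% ± 0.0110 of all counts in the younger, the older and the older 3TC-treated mice. The 3 LTR? entries took 0.0163% ± 0.0017, 0.0167% ± 0.0013 and 0.0167% ± 0.0013. For the 21 DNA? entries the shares were 0.0155% ± 0.0014, 0.0159% ± 0.0010 and 0.0159% ± 0.0012. RC took between 0.00499% and 0.00668% of the counts in a mouse, SINE? between 0.00351% and 0.00462%, RC? between 0.00092% and 0.00129%, and LINE? between 0.00067% and 0.00093%. Over the 10 classes and the 3 pairs of groups, every log2 ratio of mean shares lay between -0.06 and 0.09 and was smaller than the SD between mice of its class. The sexes taken alone differed more: for older 3TC-treated against older mice the log2 ratio was -0.63 in males and 0.56 in females for RNA, 0.15 and -0.14 for DNA?, and 0.15 and -0.15 for LTR?, each of which is larger than the SD of its class and opposite in sign between the sexes. The older and the older 3TC-treated comparisons share the older mice, so their ratios are not independent.

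**Figure D1:**
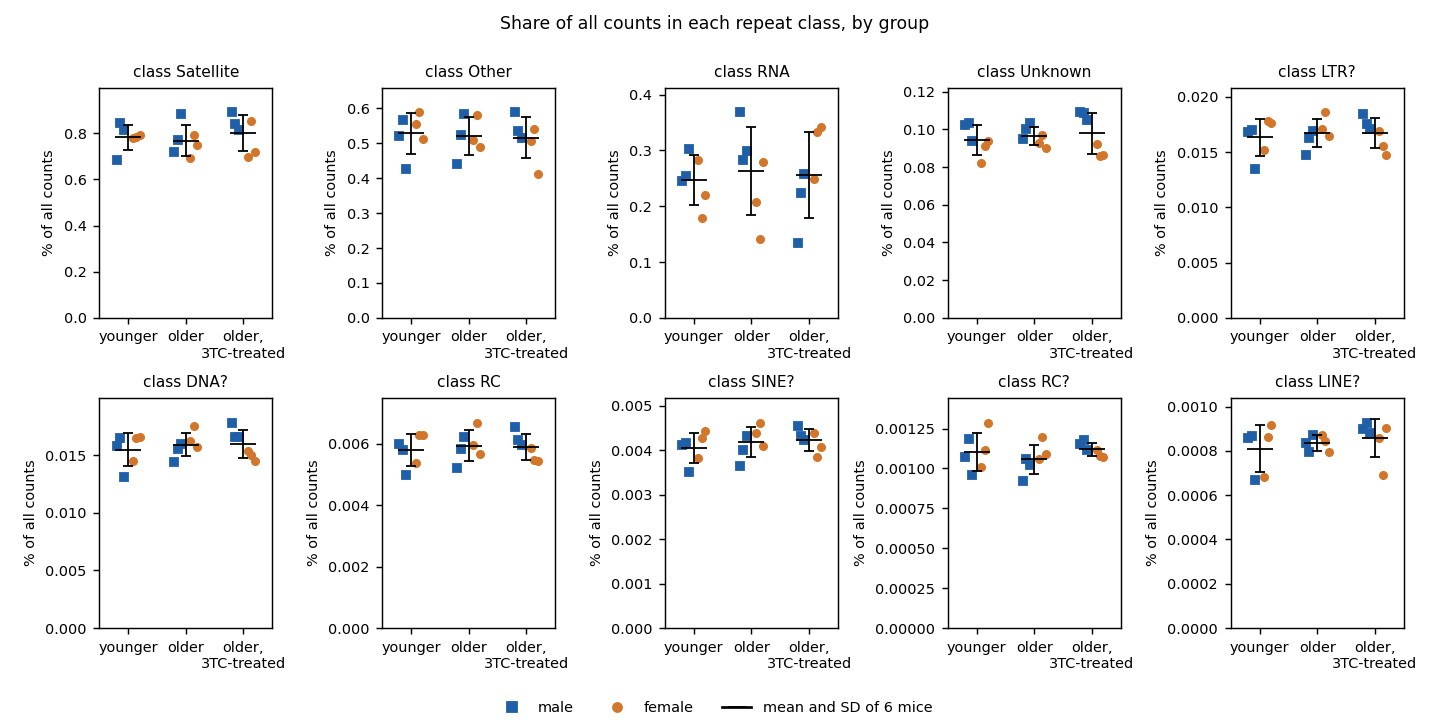
Share of all counts (%, linear axis from 0, a separate scale for each class) in each of the 10 repeat classes, for the 18 mice by group. Squares are males, circles are females, and black bars give the mean and SD of 6 mice. The 3 groups overlap in every class, and 7SK (class RNA) spreads from 0.133% to 0.368%.

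The first question was whether any of these entries differed with age. With edgeR's quasi-likelihood test over all genes and repeat entries, 0 of the 75 entries with a mean count above 10 passed an adjusted p of 0.05 between older and younger mice, beside 2 of all 16774 features (0.0119%). At an unadjusted p under 0.05 the count was 0 for the members and 67 for all features, and DESeq2 also called 0 members. The members' log2 fold changes ran from -0.09 to 0.28 with a median of 0.09, and 68 of 75 were above 0. Over all features 49.8% were above 0 with a median near 0, and of the 1064 LINE, SINE, LTR and DNA entries 96.3% were above 0 with a median of 0.09. Thus the members lay where the other repeat entries lay in this comparison. The smallest p among them was 0.334, for MER134. No member had CPM ranges that did not overlap between the groups, beside 0.0358% of all features. Fold changes use the scaling factors of edgeR (TMM) and class shares use all counts, and these measures did not always have the same sign. Satellite and Other had share ratios of -0.03 and -0.02, yet 6 of 8 and 4 of 4 of their tested entries had fold changes above 0. RC? was below 0 on both scales, and the other classes were above 0 on both by their medians.

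Comparing older 3TC-treated with older mice, the question was whether the drug was accompanied by a change. Again 0 of 75 members passed the edgeR test, with 0 called among all 16774 features (0%), and 0 members had an unadjusted p under 0.05 beside 194 of all features. DESeq2 called 0 members as well. Log2 fold changes ran from -0.15 to 0.30 with a median of -0.02, and 26 of 75 (34.7%) were above 0. Of all features 50.5% were above 0, and of the LINE, SINE, LTR and DNA entries 9.21% were, with a median of -0.04. Here too the class shares could differ in sign from the fold changes. The share ratios of DNA?, LTR?, SINE? and Unknown were 0.006, 0.002, 0.020 and 0.023. Their median fold changes were -0.009, -0.030, -0.013 and -0.021. The other classes had the same sign on both scales. The 2 smallest p-values were those of GSAT_MM (0.359) and Eulor2A (0.476). Of all features 0.00596% had ranges that did not overlap between these groups, and none of them was a member.

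For older 3TC-treated against younger mice the count was 0 of 75 by edgeR and by DESeq2, beside 2 of 16774 features (0.0119%). None of the 75 had an unadjusted p under 0.05, beside 288 of all features. The members ran from -0.09 to 0.58 on the log2 scale with a median of 0.08, and 66 of 75 were above 0, beside 53.8% of all features and 87.2% of the LINE, SINE, LTR and DNA entries. Non-overlapping ranges were found for 0 members and 0.0358% of all features. The sign of a member's fold change was not stable to the settings tried: it changed in at least 1 of them for 72 of 75 members in the older against younger comparison, for 72 in the older 3TC-treated against older comparison and for 59 in the older 3TC-treated against younger comparison.

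**Figure D2:**
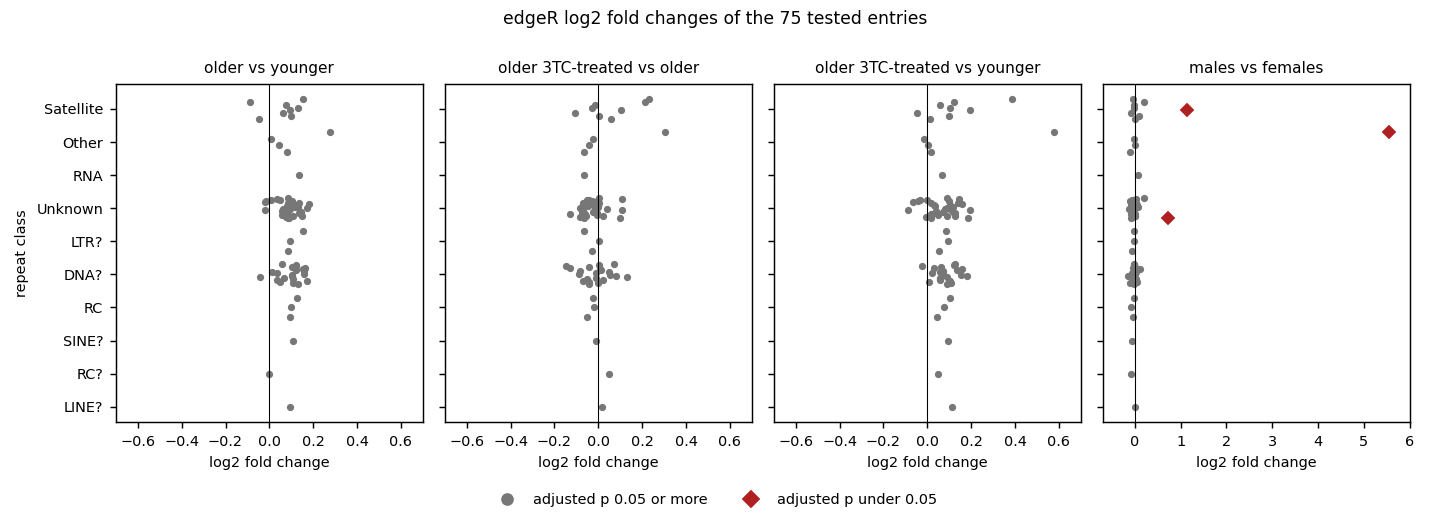
edgeR log2 fold changes of the 75 tested entries (x axis) by repeat class (y axis) in 4 comparisons, with 1 point per entry. Red diamonds mark an adjusted p under 0.05. No entry passed in the 3 group comparisons, and 3 passed between males and females, where the x axis is wider.

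The 9 satellites are given one by one. GSAT_MM, the major satellite, had 984 to 2288 CPM in younger mice with a median of 1632, 1104 to 2002 in older mice with a median of 1382, and 1240 to 2026 in older 3TC-treated mice with a median of 1664. The groups overlapped over most of their range. Its log2 fold change was -0.09 ± 0.23 (SE) for older against younger mice and 0.21 ± 0.23 for older 3TC-treated against older mice, with edgeR adjusted p-values of 1.0 in both. The 95% interval of the second value (normal approximation) ran from -0.23 to 0.66. GSAT_MM was among the more variable entries, with a coefficient of variation of 22.1% over the 18 mice.

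SYNREP_MM had medians of 1865 CPM in younger, 1909 in older and 2088 in older 3TC-treated mice, and its range over all mice was 1311 (YM8) to 2405 (DMO1). Its log2 fold change was 0.10 ± 0.21 (SE) for older against younger mice and 0.00 ± 0.21 for older 3TC-treated against older mice. IMPB_01, the satellite with the most reads, had 3007 to 4127 CPM, and its medians were 3503, 3444 and 3577. ZP3AR had medians of 581, 533 and 550 CPM. All 3 entries overlapped between all groups.

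MMSAT4 had 179 to 222 CPM over the 18 mice and the smallest spread of the satellites, 5.19%. SUBTEL_sa, a subtelomeric satellite, was low, with 3.12 to 5.54 CPM. The pentamer repeat (CATTC)n was lower still, with 0.0572 to 0.481 CPM, and its log2 fold changes had an SE of 0.49 or more in each group comparison. MurSAT1 had 28.5 to 105 CPM and divided by sex, as described below.

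CENSAT_MC, of the centromeric family, was the one member under the count filter. It had 3 to 12 counts per younger mouse (45 in all), 0 to 5 per older mouse (12 in all) and 5 to 15 per older 3TC-treated mouse (50 in all). Of the older mice 3 had no count, which allows up to 3 counts in each, and the older range met the younger one between 3 and 5 counts and the treated one at 5. Without the filter the edgeR log2 fold change was -1.73 ± 0.70 (SE; adjusted p = 1.0) for older against younger mice and 1.80 ± 0.69 (adjusted p = 1.0) for older 3TC-treated against older mice. Neither difference passed after adjustment, and the unadjusted edgeR p-values were 0.0229 and 0.0174 in that order. Both comparisons use the same 6 older mice. At such counts most differences between mice were not detectable.

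**Figure D3:**
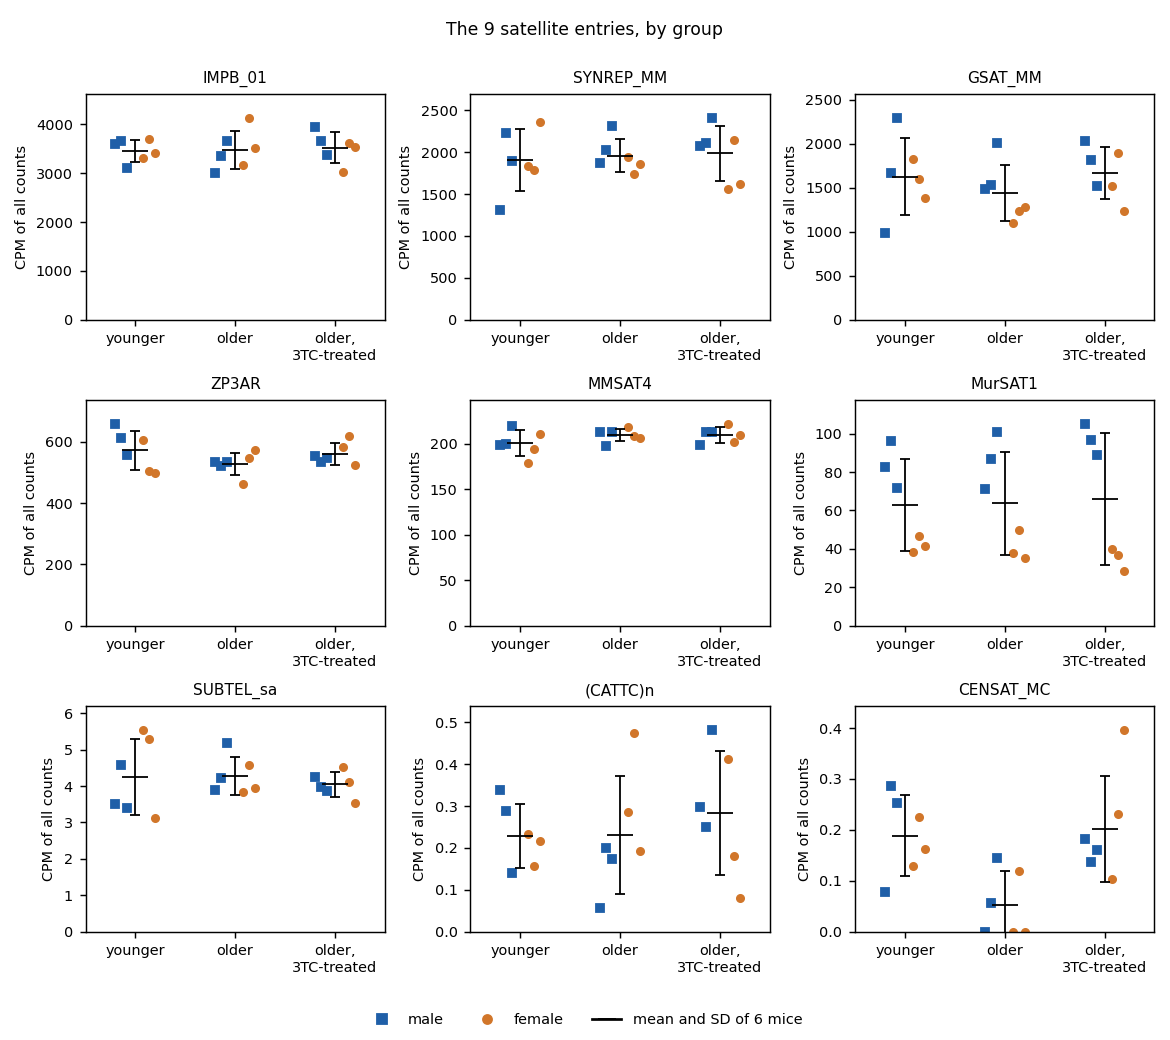
CPM of all counts (y axis, linear from 0, a separate scale for each entry) of the 9 satellites in the 18 mice by group. Squares are males, circles are females, and black bars give the mean and SD of 6 mice, cut at 0 where they reach below it. MurSAT1 separates males from females, and CENSAT_MC has 0 counts in 3 older mice.

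A comparison of males with females, with the group as a term, was added after the counts had been seen. The edgeR test called 3 of 75 members, all higher in males (4%), beside 14 of all 16774 features (0.0835%) called higher in males. Another 243 features (1.45%) were lower in males, 240 of them genes of the X chromosome, and 0 of them were members. The 14 features higher in males were 6 genes of the Y chromosome and 8 repeat entries; besides the 3 members, these were the LTR entries MURVY-int, MURVY-LTR, IAPLTR3, RLTR5_Mm and RLTR13C3. DESeq2 called the same 3 members. AMELX, an X-linked enamel gene used below as part of a floor for stray reads, had 15 to 35 counts in males and 38 to 81 in females. The part of stray reads in the counts of the 3 members was not tested.

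C573_MM, an entry of the Other class, had the largest difference among the members. Males had 36.1 to 56.6 CPM with a median of 47.7, from 1287 to 2474 counts. Females had 0.70 to 1.32 CPM with a median of 1.01, from 26 to 53 counts. Every male was above every female, and the female counts were low but never 0. The log2 fold change was 5.55 ± 0.21 (SE; edgeR adjusted p = 2.83e-13), or 46.9-fold. It passed within each of the 3 groups taken alone, with log2 fold changes of 5.15 in younger, 5.43 in older and 6.08 in older 3TC-treated mice.

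MurSAT1, a satellite of the mouse, had 71.2 to 105 CPM in males (median 89.0) and 28.5 to 49.8 in females (median 38.4). The 9 males lay above the 9 females, with no overlap. Its log2 fold change was 1.14 ± 0.20 (SE; edgeR adjusted p = 0.0035). Within single groups of 3 males and 3 females it was 0.78 in younger, 0.91 in older and 1.74 in older 3TC-treated mice and did not pass (adjusted p = 0.931, 1.0 and 0.0509).

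YREP_Mm, which is named for the Y chromosome, had 203 to 278 CPM in males (median 256) and 131 to 169 in females (median 151). All males were above all females, although each female held 4970 counts or more. The log2 fold change was 0.72 ± 0.17 (SE; edgeR adjusted p = 0.0292). This call was near the threshold: it was lost when any 1 of 13 of the 18 mice was left out, and kept without YM1, YF3, DMO5, CMO6 or CFO2. Within single groups it was 0.48, 0.47 and 1.23 and did not pass. CYRA11_Mm, whose family is given as Y-chromosome, had 88.2 to 115 CPM in males and 80.5 to 99.3 in females. These ranges overlapped, and its log2 fold change of 0.19 ± 0.16 (SE) did not pass (edgeR adjusted p = 1.0). With the share of counts in repeats as a covariate it was 0.21 and passed. CPM ranges that did not overlap and were higher in males were found for the 3 members that passed, beside 0.0894% of all features, and 0.763% of all features had ranges lower in males, none of them a member.

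**Figure D4:**
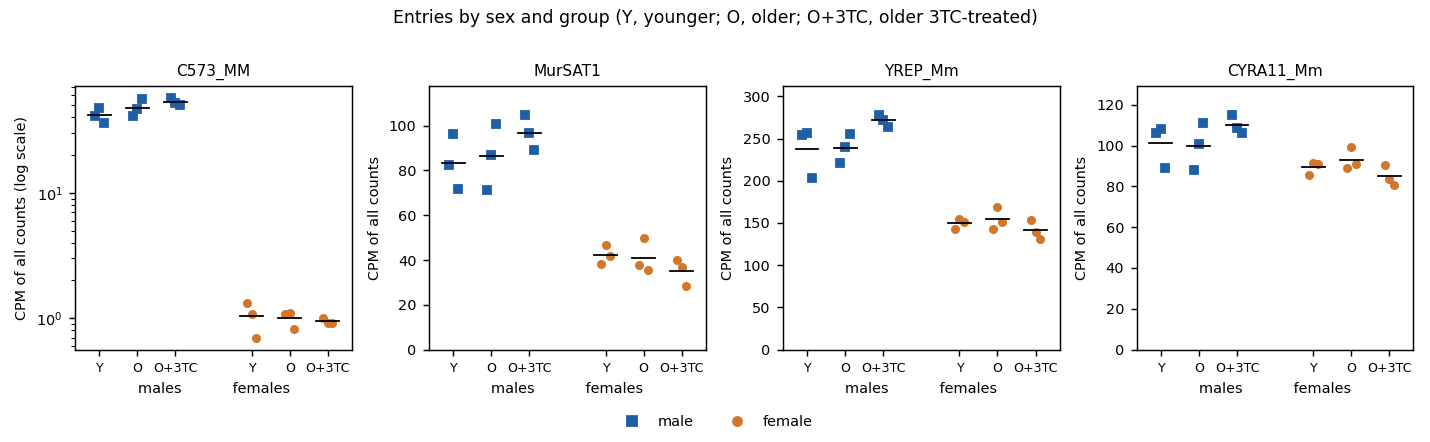
CPM of all counts (y axis, on a log scale for C573_MM and linear from 0 for the others) by sex and group for 4 entries. Each point is a mouse and each black line the mean of 3 mice. C573_MM, MurSAT1 and YREP_Mm separate the 9 males from the 9 females, and CYRA11_Mm overlaps.

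Whether the age and 3TC differences depended on sex was tested as an interaction. None of the 75 members passed for any of the 3 pairs of groups, and 0 of all 16774 features did (0%). For older 3TC-treated against older mice 19 of 75 members had an unadjusted p under 0.05, beside 1292 of all 16774 features. Of the 1064 LINE, SINE, LTR and DNA entries 90 had such a p. DESeq2 gave 21 members, and with total counts as the only scaling the edgeR count was 6. The count of 19 hung on single mice. It was 3 without CFO2, 4 without DMO5, 5 without CMO6, 6 without DFO5 and 12 without YF2 or DFO4, and it was 31 without DFO8, 32 without YM1, 34 without CMO1 and 52 without CFO1. In that pair 74 of 75 members had a larger 3TC-treated against older difference in males than in females. The median was 0.67 on the log2 scale. Of the LINE, SINE, LTR and DNA entries 99.4% had such a difference, with a median of 0.69. These values use the scaling factors of edgeR (TMM), which were lowest in CFO2 (0.754) and highest in YM1 (1.343). Those mice had the highest and the lowest share of counts in repeats. By share of all counts the DNA? ratio was 0.15 in males and -0.14 in females. The median interaction of the DNA? entries was 0.73. For older 3TC-treated against younger mice 26 of 75 members had an unadjusted p under 0.05 (DESeq2, 32 members), and 5 did with total counts as the only scaling. Beside the 26 members stood 1743 of all 16774 features and 121 of the 1064 LINE, SINE, LTR and DNA entries. Here the count was 4 without YF3, 7 without YM1 or DMO5, 9 without DFO5 and 16 without YF2 or DFO4, and it was 41 without CFO2, 43 without DFO8, 49 without YF8 and 60 without YM2. For older against younger mice the count was 0 members and 32 features (DESeq2, 0 members), and it was 1 member without YM2. The share of counts in all repeats moved in the same way. It was 85.1%, 78.4% and 77.7% in the older 3TC-treated males and 68.3%, 77.5% and 80.8% in the older males. In females it was 77.8%, 74.9% and 65.9% with 3TC and 78.2%, 85.7% and 73.4% without. Its part in these differences was not tested.

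7SK was the 1 member with the opposite sign. In older males it had 3681, 2822 and 2992 CPM, and in older 3TC-treated males 1333, 2233 and 2583. These males did not overlap. With 3 males against 3, the treated mice were lower with no overlap for 1 of 75 members, 7SK, beside 4.53% of all features, and higher for 17 members (22.7%) beside 2.97%. Older females had 2075, 1418 and 2797 CPM and older 3TC-treated females 2493, 3332 and 3418, which overlapped. In females the treated mice were higher with no overlap for 0 members beside 4.41% of all features, and lower for 5 members (6.67%) beside 1.76%. The interaction was -0.82 ± 0.31 on the log2 scale (SE; edgeR adjusted p = 0.447) and did not pass. Over both sexes the log2 fold change of 7SK was 0.13 ± 0.17 (SE) for older against younger mice and -0.07 ± 0.17 for older 3TC-treated against older mice, and neither passed (edgeR adjusted p = 1.0). Their 95% intervals ran from -0.20 to 0.47 and from -0.40 to 0.27.

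The levels of many members followed the share of counts that fell in repeats. Across the 18 mice, the log2 CPM of 55 of 75 members (73.3%) had a Pearson r above 0.5 with that share, and the median r was 0.70. Beside them, 20.3% of all 16767 features with a count in every mouse had such an r, as did 94.5% of the 1064 LINE, SINE, LTR and DNA entries, whose median r was 0.91. By a permutation test (100000 permutations, 2-sided, Benjamini-Hochberg over all 16767 features) 55 members had a positive r at an adjusted p under 0.05, beside 20.8% of all features. A negative r passed for 2 members, beside 58.7% of all features. Both measures use the same total as their denominator, and repeat reads make up the share, so these values describe how the reads divided in each library. The permutation test takes an r of 0 as its reference, while the median r was -0.75 over all features. Passing or not passing it therefore does not tell whether a member moved with the other repeat entries. MamRep605, an LTR? entry, had the highest r of the members, 0.960 (Spearman's rho 0.932, permutation adjusted p = 2.19e-05 for r and 2.86e-05 for rho, from the smallest p that the permutations can give). Without YM1 and DFO5, the 2 mice farthest from the median share, r was 0.925.

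RMER1C had an r of 0.953 (rho 0.862; permutation adjusted p = 2.19e-05 and 5.08e-05) and RMER1B one of 0.910 (rho 0.794; adjusted p = 2.19e-05 and 3.14e-04). Without YM1 and DFO5 they were 0.898 and 0.831. For RMER1C r was 0.962 within younger, 0.983 within older and 0.922 within older 3TC-treated mice. IMPB_01 had a lower r of 0.633 (rho 0.690; permutation adjusted p = 0.0066 and 0.0033), which was 0.728 without those 2 mice. Within groups it was 0.916, 0.829 and 0.252.

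The 2 members with an r below -0.5 were 7SK and UCON4, an Unknown entry that was singled out after its values were seen. Such an r was common among all features (58.5%) and was found for 4 of the 1064 LINE, SINE, LTR and DNA entries. 7SK had an r of -0.79 (rho -0.79; permutation adjusted p = 2.65e-04 and 4.72e-04), which was -0.85 without YM1 and DFO5 and -0.82, -0.81 and -0.87 within the younger, the older and the older 3TC-treated mice. Its coefficient of variation was 25.3% per all counts and 15.6% per gene counts. UCON4 had an r of -0.81 (rho -0.68; permutation adjusted p = 5.89e-05 and 0.0040), which was -0.60 without those 2 mice and -0.85, -0.79 and -0.95 within the groups. IMPB_01 went the other way, with a coefficient of variation of 8.62% per all counts and 33.5% per gene counts.

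Several satellites had an r closer to 0, below the median r of 0.91 of the LINE, SINE, LTR and DNA entries. The adjusted p-values that follow compare r with 0 and not with that median. GSAT_MM had an r of -0.05 (rho 0.08; permutation adjusted p = 0.866 and 0.784) and SYNREP_MM one of 0.21 (rho 0.24; adjusted p = 0.425 and 0.380). Without YM1 and DFO5 these were 0.15 and 0.095. For ZP3AR r was -0.10 (rho -0.21), for MMSAT4 -0.25 (rho -0.16) and for MurSatRep1, a satellite-named entry of the Unknown class, -0.07 (rho 0.01), and none of these 3 passed (permutation adjusted p for r = 0.726, 0.346 and 0.790). Within groups GSAT_MM had values of opposite sign, -0.51 in younger and 0.80 in older 3TC-treated mice, each over 6 mice.

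**Figure D5:**
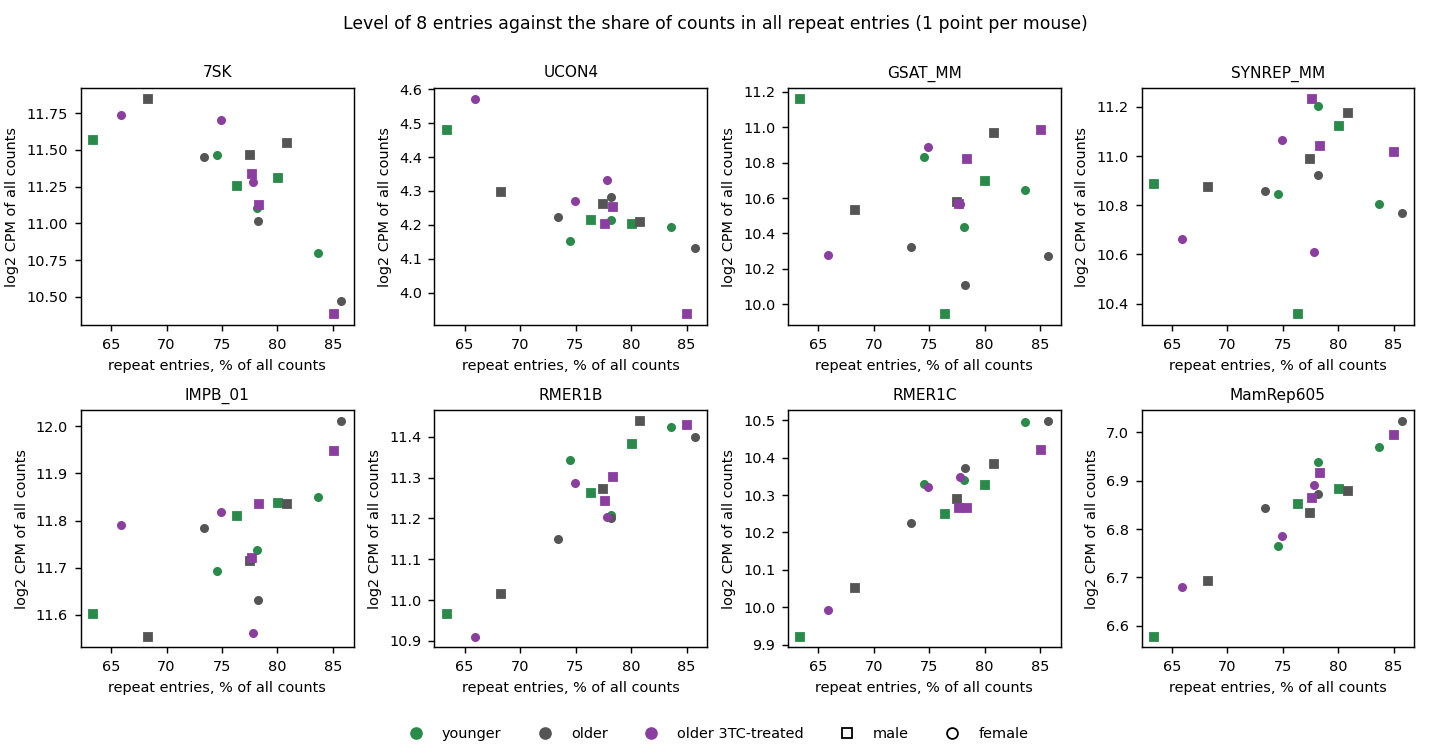
log2 of the CPM (y axis, a separate scale for each entry) of 8 entries against the share of all counts in repeat entries (x axis, %). Each point is a mouse, with the group given by color and the sex by shape. 7SK and UCON4 fall with the share, RMER1B, RMER1C and MamRep605 rise with it, and GSAT_MM and SYNREP_MM show neither.

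Among the other entries the groups overlapped. RMER1B, RMER1A and RMER1C, which are families of rodent repeats in the Other class, had means of 2443, 1500 and 1252 CPM over the 18 mice and coefficients of variation of 10.5%, 11.1% and 10.3%. RMER1B had a log2 fold change of 0.04 ± 0.22 (SE) for older against younger mice and -0.04 ± 0.22 for older 3TC-treated against older mice. In the Unknown class MurSatRep1 held 43.7% of the counts and YREP_Mm 20.6%. MurSatRep1 had 364 to 448 CPM and the smallest coefficient of variation of all members, 4.79%.

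The Helitron entries had 30.0 to 38.4 CPM for Helitron3Na_Mam, 10.5 to 15.3 for Helitron1Nb_Mam, 9.32 to 13.3 for Helitron1Na_Mam and 9.21 to 12.9 for Helitron2Na_Mam, the RC? entry. The groups overlapped for each of these entries. MamRep605 had 95.5 to 130 CPM, MamRep1151 30.2 to 44.3 and MER129 9.13 to 13.6, and these are the 3 LTR? entries. MER131 (SINE?) had 35.1 to 46.2 CPM and UCON13 (LINE?) 6.71 to 9.28.

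The DNA? entries were led by MER124 with 35.2 to 47.0 CPM, then Eulor5A with 10.3 to 15.2 and UCON7 with 9.80 to 14.9. The lowest was Eulor7, with 0.209 to 0.726 CPM and a coefficient of variation of 34.9%. In the group comparisons the smallest p-values in this class and in the Unknown class were those of MER134 (0.334) and UCON2 (0.352) for older against younger mice. For older 3TC-treated against younger mice they were those of Eulor6D (0.366) and UCON24 (0.30). UCON24 had medians of 3.38, 3.59 and 3.95 CPM in the younger, the older and the older 3TC-treated mice, with a log2 fold change of 0.19 ± 0.18 (SE) between the last and the first. UCON2, UCON28a, UCON28c, UCON12, Eulor2C, Eulor6E and Eulor4 all had means of 16.2 CPM or less and overlapped between groups.

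The genes that act on these RNAs were described from lists. Of 28 tested genes of heterochromatin and satellite silencing, 0 passed in either direction in each of the 3 group comparisons, and their median log2 fold change was -0.03, 0.03 and 0.03 for older against younger, older 3TC-treated against older and older 3TC-treated against younger mice. The medians of all 15635 genes were -0.01, 0.01 and 0.00. HELLS, a chromatin remodeler needed for DNA methylation of satellites, had the smallest p with age (log2 fold change 0.35 ± 0.15 SE, edgeR adjusted p = 1.0) and did not pass. Between males and females SUV39H1, an X-linked histone H3 lysine 9 methyltransferase, was lower in males (-0.46 ± 0.07 SE, edgeR adjusted p = 0.0013), the only 1 of the 28 that passed. Of 15 centromere and kinetochore genes 0 passed in the group comparisons, and between the sexes CENPI was lower in males (-0.99 ± 0.20 SE, edgeR adjusted p = 0.0095). CENPI was low, with a mean of 2.91 CPM. Of all 243 features lower in males, 240 were genes of the X chromosome.

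None of the 27 genes of RNA polymerase III transcription, the 7 of the 7SK particle and P-TEFb, the 7 of the signal recognition particle, the 2 that bind Y RNAs, the 29 of tRNA processing and the 25 of the spliceosomal snRNPs passed in any of the 3 group comparisons or between the sexes. In the 7SK particle the smallest p-values were those of MEPCE, its capping enzyme, with age (-0.13 ± 0.13 SE) and HEXIM2, an inhibitor of P-TEFb, for older 3TC-treated against older mice (0.17 ± 0.15 SE). Genes restricted to other tissues, used as a floor for stray reads, summed to 56.4 to 83.6 CPM over 27 genes, with the lowest sums in YM1 and DFO5, the 2 mice with the lowest share of counts in repeats. Of these 27 genes 0 passed in the group comparisons, and AMELX, an X-linked enamel gene, was lower in males (edgeR adjusted p = 0.0163). The mean levels of the 27 genes ran from 0.305 (DEFA5) to 11.6 CPM (MUC2). HELLS (3.82), SUV39H1 (6.14), CENPI (2.91), MEPCE (11.4) and HEXIM2 (2.84) had mean levels within that range. The part of stray reads in their counts was not tested. Blood markers were at 0 of 3 listed genes in the table. In whole tissue, fewer cells of a type and less RNA per cell cannot be told apart for any of these values.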

How the data were processed

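The authors deposited whole-number read counts for genes and for repeat entries in 18 hippocampus libraries. Per the labels and the study's methods, reads were aligned with STAR to mm10 and tested with DESeq2; repeats were counted against a RepeatMasker annotation with multi-mapping reads kept, so reads can be divided among related families. The study used both TEtranscripts and RepEnrich2 on repeats, and which program gave the counts used here was not settled. The labels give polyA RNA and the methods ribosome-depleted total RNA, and this was not settled either. Satellite and 7SK counts could differ between those library types.

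Gene and repeat counts were joined (16790 features) and those with a mean count above 10 were tested (16774, of them 1139 repeat entries and 75 members). edgeR 4.0.16 (quasi-likelihood F test, TMM factors, R 4.3.3) was fitted to all 18 mice with Benjamini-Hochberg adjustment over all features, at a threshold of 0.05. An SE is the fold change divided by the root of F. Shares and CPM use all counts of a library, and class shares were not tested. Alternatives included DESeq2 1.42.0, other scalings, no filter, covariates and leaving out each mouse. The procedure was run on simulated counts with larger changes than those of the 75 members in the group comparisons and with no shift in repeat share. Detection of changes as small as those of the members was therefore not tested. Pathway lists and members were chosen with earlier results of these data known. The sex comparison, the repeat share covariate and the fit without YM1 and CFO2 were added after the counts were seen. Named were all entries of the Satellite, RC, Other and small classes, and of larger classes the 3 with most counts, the 2 with the smallest p in each group comparison and any that passed a test. Mice are separate animals. Precision at low counts is limited by counting: 3 counts were taken as the upper limit that a count of 0 allows. Repeat consensus sequences were not used here.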

Additional observations from a re-analysis of the deposited data

Results flagged for a closer look

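Within a group of 6 mice, 1 mouse stood apart from the other 5 by Dixon's criterion at the 95% level in 5 of 138 group and entry pairs, where chance alone gives about 1 in 20, or 6.90. All 5 values were 13.3 CPM or less. In older mice CFO2 had 8.66 CPM of Eulor2A (others 6.19 to 6.80) and 13.3 CPM of Helitron1Na_Mam (others 10.1 to 11.2), and this mouse also had the highest share of counts in repeats. In older 3TC-treated mice DFO4 had 6.90 CPM of UCON13 (others 8.58 to 9.28) and 2.80 CPM of UCON24 (others 3.84 to 4.41). In younger mice YF8 had 3.16 CPM of Eulor4 (others 4.07 to 4.47).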

How the results depend on the processing

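The count of members that passed was 0 in the 3 group comparisons and the 3 interactions under every setting run, including each mouse left out. Between the sexes it was 2 to 3 with each mouse left out, 3 under the other scalings and without the filter, 4 with the repeat share as a covariate and 2 with the label number as a replicate block, where YREP_Mm was lost. Within younger, older or older 3TC-treated mice alone it was 1, C573_MM in each. Labels do not say that equal numbers mark related mice. For class shares, males and females taken alone gave log2 ratios that moved by more than the SD between mice, as follows. For older 3TC-treated against older mice they were, in males and females, 0.15 and -0.14 for DNA?, 0.15 and -0.15 for LTR? and -0.63 and 0.56 for RNA, with 0.20 for RC? and 0.13 for SINE? in males and -0.13 for RC in females. For older 3TC-treated against younger mice they were 0.17 and -0.084 for DNA?, 0.16 and -0.10 for LTR?, 0.15 and -0.10 for RC, and -0.38 for RNA in males. The cause was not tested. The share of repeat counts without rRNA entries was not run because the table had 0 entries of class rRNA. Counts of CENSAT_MC, (CATTC)n and Eulor7 limit what could be detected for them.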
